A study of Mus musculus with 4 samples.

Results

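The windows described here are stretches of promoter DNA in which 3 neighbouring array probes were each 60 bases long, the longest probe length on these arrays. They were picked by probe position alone, from autosomal probes without an outlier mark, as runs of 3 probes spanning at most 1000 bp. Of 390828 such windows on the autosomes, 62552 had 3 probes of 60 bases: 32784 on array design 1 (16.2% of its windows) and 29768 on array design 2 (15.8%). Neighbouring windows share probes, so the windows are not independent, and they rest on 55590 and 50998 different probes.

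The R1E line of mouse embryonic stem cells was studied by ChIP-chip, in which chromatin immunoprecipitated with an antibody, here 10 µg against p53, is hybridised to an array. Cells grew with leukaemia inhibitory factor at 1000 units/ml, and adriamycin, which damages DNA, was added at 0.5 µM for 8 h to one culture and not to the untreated one. Precipitated (IP) DNA was labelled with Cy5 and input DNA of the same cells with Cy3. The 2 designs cover different probes, with chromosome 9 split between them, and each condition has 1 array per design, so there is no test and no p-value, and slide and condition cannot be told apart. All cells are of 1 line, and arrays of genomic DNA give no marker expression by which that line could be checked.

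p53 is a transcription factor that is stabilised after DNA damage and binds a response element built of paired short motifs near its target genes, among them genes of cell cycle arrest and apoptosis. In embryonic stem cells it is also known for its part in differentiation. Promoter tiling probes are commonly shortened in GC-rich DNA so that all probes melt at similar temperatures, which leaves the longest probes to AT-rich DNA. Neither probe sequences nor a genome of the build of these coordinates were used here, so base composition was not measured, and the windows are called 60-base windows by their rule. No genome build is given in the sources used, so no genes are named and positions are as the deposited files list them.

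The 60-base windows were spread widely but unevenly over the tiled promoters. At least 1 lay in 5854 (57.6%) of the 10157 tiled stretches of design 1 and in 5407 (58.8%) of the 9201 of design 2, with a median of 4 windows per such stretch. Their share was highest near the ends of a stretch. Within 1000 bp of an end, 20.6% of design 1 windows and 20.2% of design 2 windows were 60-base windows, against 12.3% and 11.7% at 2000 to 3000 bp from it. By chromosome the share ran from 10.2% of windows on chromosome 15 to 26.0% on the part of chromosome 9 on design 1. The longest unbroken run of 60-base probes was 32 probes.

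All values below are log2 ratios of IP over input after subtraction of the array median, so a value of 0 is the middle of the array and 1 is 2-fold above it. Single probes already showed a step at the longest length, and another between 45 and 46 bases. On design 1 the median log ratio of probes of 45 bases was 0.30 untreated and 0.50 with adriamycin. It was -0.05 and -0.13 at 59 bases, and -0.21 and -0.23 at 60 bases. On design 2 the medians were 0.40 and 0.65 at 45 bases, -0.07 and -0.12 at 59 bases, and -0.30 and -0.32 at 60 bases. The log ratio was thus lower at 60 than at 45 bases in each of the 4 arrays, and probes just inside the rule, at 60 bases, lay below those just outside it, at 59.

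**Figure D1:**
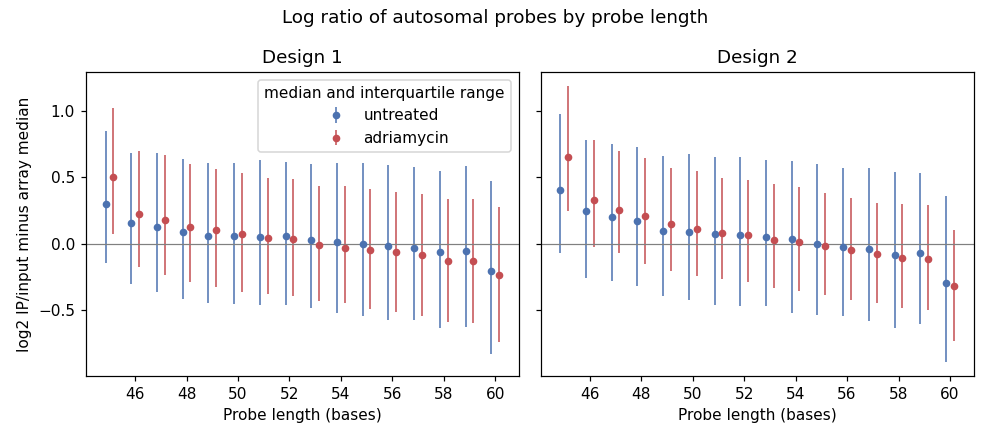
Median log2 ratio of IP over input minus the array median (y axis) for autosomal probes of each length in bases (x axis), for the untreated and adriamycin arrays of both designs; bars are the interquartile range over probes. Medians lie above 0 at 45 bases and reach their lowest values at 60 bases in the 4 arrays, while the ranges of neighbouring lengths overlap widely.

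The fall in ratio went together with dimmer spots in both channels. Probes of 60 bases had median input signals of 436 (untreated) and 431 (adriamycin) on design 1, against 1304 and 1421 for shorter probes, and 517 and 581 against 1482 and 1808 on design 2. Their median IP signals were 328 and 306 against 1252 and 1462 on design 1, and 372 and 424 against 1476 and 2056 on design 2. IP signal was well above background for 90.3% and 87.3% of 60-base probes on design 1 and for 94.7% and 96.5% on design 2. For shorter probes this share was 99.2% or more in each array. Signals are processed intensities of the scanner software, and levels are set side by side as medians over many probes.

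In whole windows, the 60-base windows had the lowest medians of all classes in these ratios, an order against windows without a 60-base probe that a background model turned in 3 of the 4 arrays, as given in the next paragraph. The median was -0.22 untreated (interquartile range over windows -0.67 to 0.28) and -0.26 with adriamycin (-0.62 to 0.12) on design 1. It was -0.34 (-0.76 to 0.12) and -0.44 (-0.74 to -0.13) on design 2. Windows with 2 probes of 60 bases, just outside the rule, had medians of -0.14 and -0.22 on design 1, and -0.19 and -0.24 on design 2. Windows without a 60-base probe had 0.16 and 0.25, and 0.23 and 0.36. The order of the classes was the same in the 4 arrays, and the interquartile ranges of the 60-base windows and of windows without such a probe overlapped in each array but the adriamycin array of design 2.

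Against the median of all windows, the 60-base windows lay lower by 0.22 to 0.43 on the log2 scale in the 4 arrays, a mean gap of -0.31 ± 0.10 (SD over 4 arrays, which are not replicates). Against windows whose 3 probes were all 50 bases or shorter, the mean gap was -0.82 ± 0.26 (SD, 4 arrays). With a lowess correction for intensity the gap to all windows shrank to -0.13 untreated and -0.02 with adriamycin (means of both designs), and with normexp on spot medians, a background model with an offset of 50, the means were 0.06 and 0.01. Under normexp the 60-base windows lay above windows without a 60-base probe by 0.11 and 0.12 on design 1 and by 0.05 untreated on design 2. With adriamycin on design 2 they stayed lower, with a gap of -0.23. The lowess correction kept the windows lower in the 4 arrays, and normexp kept them lower in 1. The normexp offset pulls dim spots toward equal IP and input before the centring. The deposited log ratios, which are not centred, had medians of -0.94 untreated and -1 with adriamycin on design 1. On design 2 these medians were -0.93 and -0.45. The part of the offset in the turned order was not tested. Set against all 60-base probes in place of all probes, the windows lay near 0, at -0.01 and -0.03 on design 1 and at -0.04 and -0.12 on design 2.

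**Figure D2:**
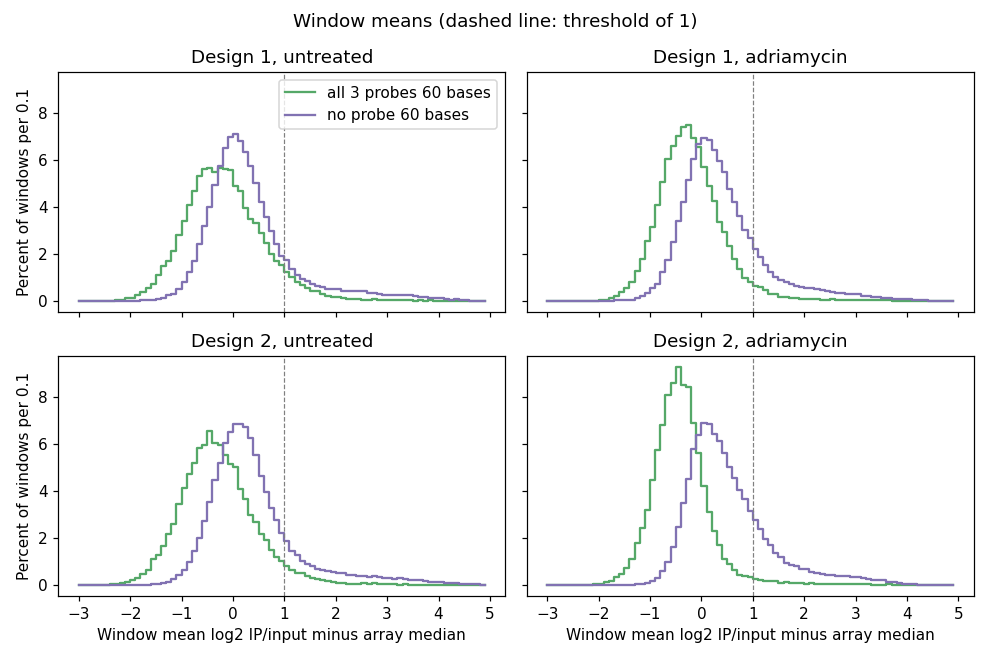
Percent of windows (y axis) in each step of 0.1 of the window mean log2 ratio minus the array median (x axis), for windows of 3 probes of 60 bases and windows with no 60-base probe, in each array. The 60-base windows peak below 0 in the 4 arrays, and fewer of them lie beyond the threshold of 1, drawn as a dashed line.

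The same order held inside single tiled stretches in these ratios. In 2105 tiled stretches of design 1 and 1967 of design 2 with at least 3 windows of each kind, the 60-base windows were set against the windows without a 60-base probe. The median difference on design 1 was -0.71 untreated and -0.89 with adriamycin. The design 2 values were -0.82 and -1.11. The 60-base windows were the lower ones in 87.5% and 93.3% of these stretches on design 1, and in 92.5% and 96.8% on design 2. Their input signal was lower too, by 2.06 and 2.18 on the log2 scale on design 1 and by 1.99 and 2.09 on design 2, and its part in the difference was not tested.

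The log ratio of the 60-base windows varied with their input signal. Windows of each array were divided into 10 equal parts by their mean input signal, and 74.6% (untreated) and 81.4% (adriamycin) of the 60-base windows of design 1, and 74.4% and 81.0% of design 2, fell in the 3 dimmest. In the dimmest decile of design 1 their median log ratio was 0.18 untreated and -0.04 with adriamycin, against -0.35 and -0.41 in the next decile. On design 2 these medians were -0.02 and -0.43 untreated, and -0.46 and -0.49 with adriamycin. The upturn in the dimmest decile was thus clear in both untreated arrays and in the adriamycin array of design 1, and small in the adriamycin array of design 2. The input is the denominator of the ratio, so a spot whose input reads low by noise is placed in a dim decile and given a high ratio by construction.

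At like input the 60-base windows still lay below windows without a 60-base probe. In the 9 deciles with at least 20 windows of both kinds, the gap ran from -0.84 to -0.57 (untreated) and from -0.47 to -0.03 (adriamycin) on design 1. On design 2 it ran from -0.91 to -0.65 and from -0.44 to -0.29. With windows divided by the input of the other array of the design, which shares no spot noise with the ratio, the untreated gaps were -0.37 to -0.06 on design 1 and -0.43 to -0.33 on design 2. The adriamycin gaps were then -0.51 to 0.09 on design 1, where 8 of 9 deciles were below 0, and -0.62 to -0.30 on design 2. Against a match on each array's own input, the untreated gaps were thus smaller when the other array's input was used.

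**Figure D3:**
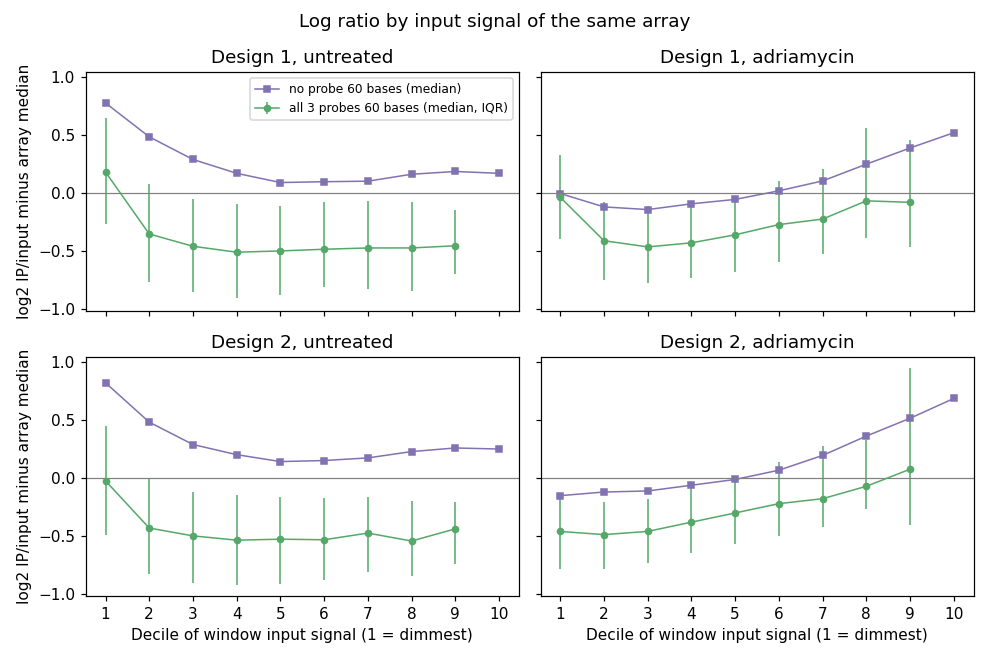
Median log2 ratio minus the array median (y axis) by decile of window input signal of the same array (x axis, 1 is dimmest), for windows of 3 probes of 60 bases with their interquartile range and for windows with no 60-base probe; deciles with under 20 windows are left out. The 60-base windows lie lower in each decile shown, and both kinds turn up in the dimmest deciles of the untreated arrays.

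Longer runs of 60-base probes had dimmer input. On design 1 the median untreated input signal fell from 447 in windows within runs of exactly 3 probes to 212 in runs of 9 or more, and on design 2 from 530 to 262. The median log ratio did not follow it downward on design 1, with -0.23 in the shortest and -0.13 in the longest runs untreated, and -0.31 and -0.15 with adriamycin. On design 2 the values were -0.31 in both untreated, and -0.38 and -0.46 with adriamycin. Across chromosomes the medians of 60-base windows were below 0 throughout, from -0.40 (chromosome 11) to -0.14 (chromosome 9, design 1) untreated and from -0.47 (chromosome 12) to -0.12 (chromosome 9, design 1) with adriamycin. The part of chromosome 9 on design 2 had -0.34 untreated and -0.43 with adriamycin. The other chromosomes lay on 1 design each, so differences among chromosomes of different designs cannot be told apart from the slide.

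A window was called bound when its mean and at least 2 of its 3 probes were 1 or more, and depleted by the same rule with the sign turned. Bound 60-base windows were fewer than the background and depleted ones more. In the untreated arrays 2823 (4.51%) of the 62552 were bound, against 9.36% of all windows, and in the adriamycin arrays 1565 (2.50%) against 9.84%. Depleted were 6170 (9.86%) untreated, against 3.69% of all windows, and 4089 (6.54%) with adriamycin, against 2.11%. At this threshold more 60-base windows were thus depleted than bound in either condition. That order turned with normexp in both conditions (329 bound and 3 depleted untreated, 417 and 0 with adriamycin). It also turned with the lowess correction in the adriamycin arrays (1857 and 683) and with the centring given next. The bound share stayed below that of all windows in each array with normexp, at 0.473% to 0.830% against 3.26% to 6.33%. With lowess in the adriamycin arrays it was 3.26% and 2.64% against 6.28% and 6.31%.

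Centring on the 60-base probes in place of all probes raised the bound 60-base windows to 4576 untreated and 2478 with adriamycin and lowered the depleted ones to 2887 and 1273. By array, 8.09% and 4.96% of the 60-base windows of design 1 and 6.46% and 2.87% of those of design 2 were then bound. All windows rose as well, to 12.4% and 12.7%, and to 14.4% and 16.6%, so the 60-base windows stayed below them. The call at the threshold of 1 therefore moves with the reference chosen for probes of this length. Of the bound 60-base windows of design 1, 68.0% lay in the dimmest input decile untreated and 41.6% with adriamycin. On design 2 the shares were 59.4% and 9.69%. That decile held 37.5% and 42.5% of all 60-base windows of design 1, and 37.1% and 42.3% of those of design 2. By own input, the bound windows of both untreated arrays were thus more often among the dimmest spots than 60-base windows at large. Own input is the denominator of the ratio, so this excess is favoured by construction. With windows divided by the input of the other array, the untreated shares were 50.1% against 42.5% on design 1. On design 2 they were 42.0% against 42.3%, so no excess was seen there. With adriamycin, by own input, the share of bound windows in the dimmest decile was near that of all 60-base windows on design 1 and below it on design 2.

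At a threshold of 2 the order of the counts turned, and bound 60-base windows outnumbered depleted ones. The contrast with all windows kept its direction, with fewer bound and more depleted. There were 515 bound (0.823%) and 119 depleted (0.190%) 60-base windows untreated, against 3.57% and 0.0512% of all windows. With adriamycin there were 437 (0.699%) and 25 (0.0400%), against 3.41% and 0.00844%. Of the windows bound at 2, 324 were bound in both conditions, which is 62.9% of the untreated and 74.1% of the adriamycin calls. At a threshold of 1, 882 were shared, 31.2% and 56.4%. In all other windows the shared calls were 77.5% and 80.8% at a threshold of 2, and 73.6% and 67.3% at 1.

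Strong 60-base windows sat mainly inside wide enriched regions. When bound windows of all lengths were merged across gaps of up to 500 bp, regions at least 3000 bp wide held 549 (1.67%) of the 60-base windows of design 1 and 420 (1.41%) of design 2. They held 206 (71.0%) of the 290 60-base windows bound at 2 in the untreated array of design 1 and 190 (76.3%) of 249 with adriamycin, and 164 (72.9%) of 225 and 140 (74.5%) of 188 on design 2. The width of these regions comes from the same log ratios, so these shares are a description. The share of other windows bound at 2 in such regions was not measured, so the pattern need not be particular to 60-base windows. Inside them the 60-base windows were again the lower ones, by a median of 0.86 (untreated) and 0.83 (adriamycin) over 165 regions of design 1 and by 0.77 over 153 regions of design 2 in both conditions.

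Merging bound 60-base windows alone, from either array of a design, gave 2081 regions, 1306 on design 1 and 775 on design 2. Their median width was 548 bp, and 1232 consisted of 1 window. Each region was read at its best window, the one whose mean of both conditions was highest. All spots of that window were well above background in both channels and both arrays in 1121 regions, and the named regions come from these. The error beside a region's value is the SD of the 3 probe values in its best window, and probes are not replicates.

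The 8 highest regions were picked by their mean over both conditions, which favours regions high in both. They had 4.03 to 4.54 untreated and 3.69 to 4.54 with adriamycin. On chromosome 2, the region from 74470004 to 74473148 had probe values of 4.42, 4.16 and 3.51 untreated and 4.54, 4.81 and 4.29 with adriamycin, a window mean of 4.03 ± 0.47 and 4.54 ± 0.26. It lay in an enriched region of 27724 bp, the widest over all windows, and the 60-base window was as high as the shorter probes beside it. The probe of 49 bases just before it had 4.53 and 4.47.

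Nearby on the same chromosome, the region from 74489329 to 74490500 had window means of 4.54 ± 0.71 untreated and 3.89 ± 0.17 with adriamycin. Its probes at 74489981, 74490206 and 74490441 had 3.75, 5.11 and 4.75 untreated and 3.70, 3.92 and 4.04 with adriamycin. The 60-base probe at 74489329, at the edge of this region, had 0.39 and 0.98, while the 45-base probe before it had 6.52 and 4.76. Neighbouring probes inside an enriched region could thus differ by far more than the conditions did.

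Of the other 6, those on chromosome 5 (38115910 to 38116396) and chromosome 19 (24965867 to 24966322) had 4.24 ± 0.56 and 4.51 ± 0.59 untreated. With adriamycin they had 3.96 ± 0.21 and 3.69 ± 0.16. Chromosome 3 (154264254 to 154264695) and chromosome 9 (91165069 to 91165787) held regions at 4.36 ± 0.31 and 4.19 ± 0.75 untreated, and 3.82 ± 0.23 and 3.76 ± 0.13 with adriamycin. Chromosome 8 (60214910 to 60215272) and chromosome 18 (11050280 to 11050743) held regions at 4.13 ± 0.65 and 4.14 ± 0.48, and 3.77 ± 0.18 and 3.75 ± 0.33. The adriamycin value was the lower one in 7 of the 8, with differences from -0.81 to 0.51, but in 3 of the 8 once both arrays were scaled to equal spread, where they ran from -0.13 to 1.05. It was lower in 8 of 8 with a common input and in 6 of 8 with normexp, so the sign of these small differences was not settled. The 8 lay in enriched regions 3586 to 27724 bp wide, and their input was no dim extreme, at the 21.7th to 73.5th percentile of windows.

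**Figure D4:**
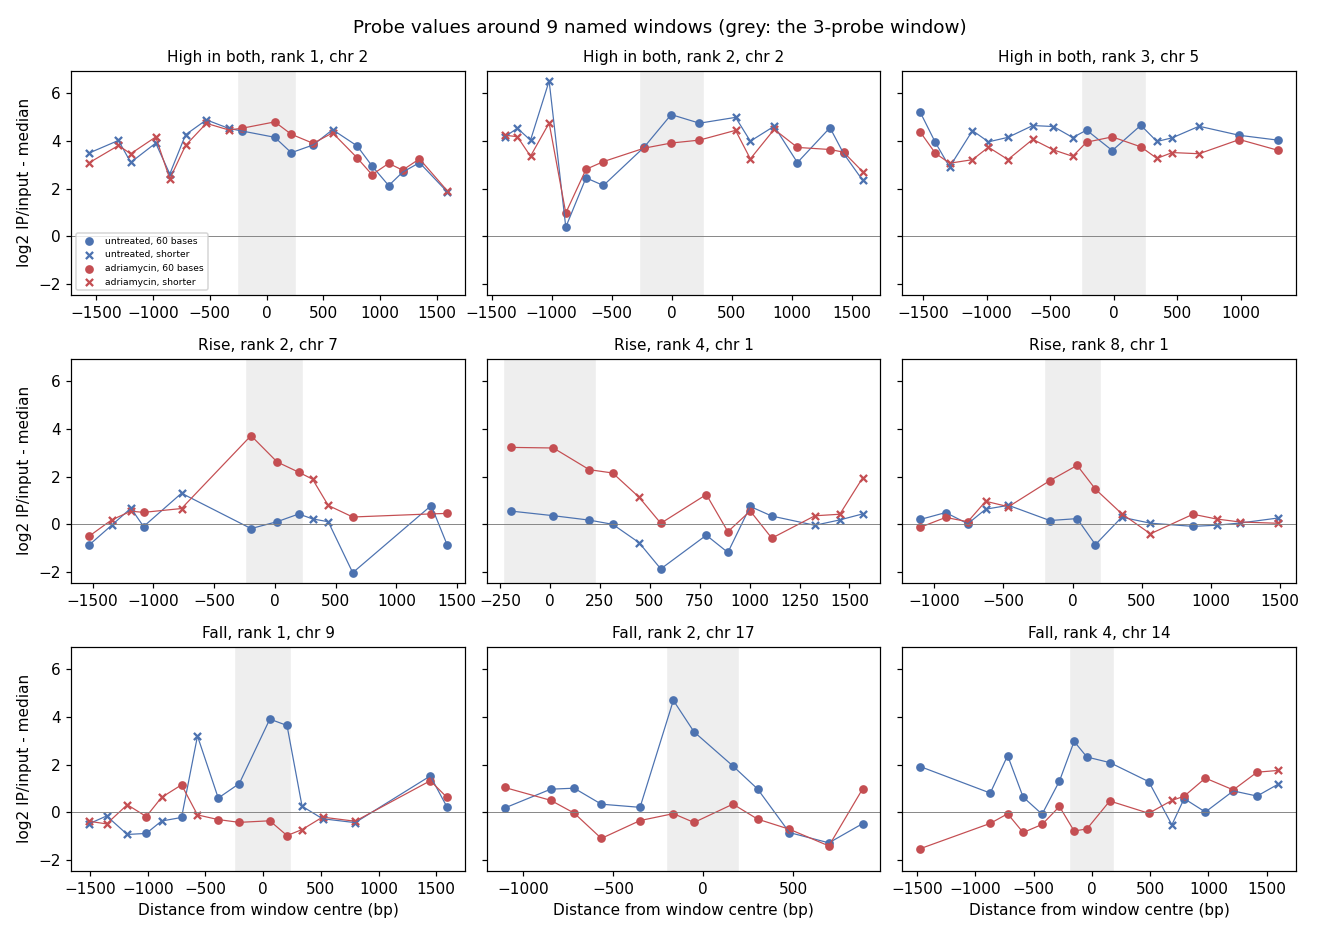
Log2 ratio minus the array median (y axis) of single probes by distance in bp from the centre of the named window (x axis), untreated and adriamycin, with 60-base probes as circles and shorter ones as crosses; the grey band is the 3-probe window. The windows, 9 of the named ones, were chosen after their values were seen. The top row stays high over most of the stretch in both conditions, the middle row rises near the window with adriamycin, and the bottom row is high in the window in the untreated array alone.

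With 1 array per condition, untreated and adriamycin cells were compared by differences of at least 1 on the log2 scale, and rise and fall are used for such untested differences. Over both designs, single 60-base windows differed more often than others in both directions, but the excess of rises lay mainly on design 1. Of the 62552, 3683 (5.89%) were higher with adriamycin, against 4.2% of all windows, and 6289 (10.1%) were lower, against 5.5%. By design, 7.29% of 60-base windows were higher on design 1, against 4.41% of all windows. On design 2 the shares were near each other, at 4.34% against 3.97%. The lower shares were 9.71% against 5.89% on design 1, and 10.4% against 5.07% on design 2. Between the conditions their log ratios had a correlation of r = 0.44 on each design, against 0.71 and 0.74 over all windows, as a description over 32784 and 29768 windows that share probes and slides. The median SD over the 3 probes of a 60-base window was 0.77 untreated and 0.61 with adriamycin on design 1, and 0.74 and 0.47 on design 2. Over all windows it was 0.59 and 0.48, and 0.59 and 0.38, so the spread was wider at dim 60-base spots and wider in the untreated arrays.

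Of the 2081 bound 60-base regions, 194 (9.32%) were higher with adriamycin, against 12.1% of all bound regions, and 916 (44.0%) were lower, against 24.2%. Higher regions thus made up 17.5% of the changed ones. This split depended on the processing. It was close to that at 18.8% with centring on 60-base probes, and at 20.8% both with lowess and with only spots well above background. Higher regions were 54.6% of the changed ones with a common input for both arrays (215 higher, 179 lower), 49.3% with ratios centred within input deciles (303 and 312) and 59.7% with the deposited value table (108 and 73). With both arrays scaled to equal spread they were 29.1% (299 and 728), and with normexp there were 29 higher and 0 lower regions.

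In the lower regions input changed more than IP. Regions were called from ratios with input as the denominator, so a dim untreated input favours a lower call by construction. Relative to the array medians, input was higher with adriamycin in 905 of the 916 lower regions, by a median of 1.16 (interquartile range 0.79 to 1.58). Their IP signal changed by a median of -0.55 (-0.89 to -0.21). IP fell by at least 1 in 181 (19.8%). The median untreated input of these regions was at the 1.52nd percentile of all windows, and at the 8.16th with adriamycin. The part of this shift in the lower calls was not tested beyond the common input. Input was also higher with adriamycin in 554 of the 971 regions that were neither, and in 60 of the 194 higher ones. In the 194 higher regions IP rose by a median of 1.07 (0.42 to 1.46) and input changed by -0.43 (-0.95 to 0.11), and IP was higher by at least 1 in 100 (51.5%). Changes of the higher regions were thus carried more by IP than those of the lower ones.

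**Figure D5:**
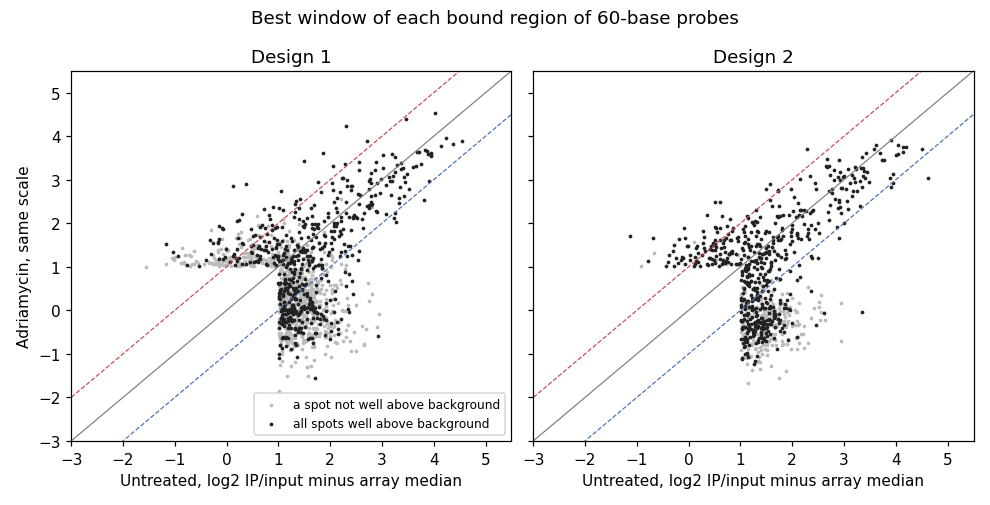
Untreated (x axis) against adriamycin (y axis) log2 ratio minus the array median for the best window of the 2081 bound regions of 60-base probes, 1 point per region; the solid line is equality and dashed lines mark differences of 1 and -1. Grey points hold a spot not well above background, and they make up most of the cloud below the lower dashed line.

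Differences of 1 or more were fewest in wide enriched regions. Of the 1148 60-base regions in enriched regions of at most 1000 bp, 691 (60.2%) were lower and 115 (10.0%) higher. Of the 411 in enriched regions over 3000 bp, 41 (9.98%) were lower and 9 (2.19%) higher, and their medians were 1.96 untreated and 1.75 with adriamycin. Width grows with the log ratio itself, so this is a description.

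The 8 largest rises went from -1.18 to 0.37 untreated up to 1.25 to 2.91 with adriamycin. At 60653113 to 60653483 on chromosome 18, the probe values were -0.09, -2.32 and -1.01 untreated and 2.96, 1.75 and 0.38 with adriamycin, a difference of 2.84 ± 1.36. At 112161405 to 112161857 on chromosome 7, the 3 probes had -0.18, 0.11 and 0.44 untreated and 3.72, 2.62 and 2.19 with adriamycin, a difference of 2.72 ± 1.09. At 46795732 to 46796302 on chromosome 1, the 3 probes had 0.56, 0.36 and 0.18, and 3.23, 3.21 and 2.30, a difference of 2.54 ± 0.38. In these 3 windows the lowest probe with adriamycin was above the highest untreated probe. The rises were picked by this difference, so such separation is favoured by construction, and probes are not replicates.

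The probes beside these windows followed in part. On chromosome 7 the 45-base probe at 112161919, next to the window, went from 0.23 to 1.90, and the probe after it from 0.11 to 0.80. On its other side the nearest probe, at 112160834, went from 1.31 down to 0.67. Beside the window on chromosome 18, the nearest probe, at 60652595, went from -0.70 to 0.30 and the one before it from -1.61 to -0.07. On chromosome 1 the fourth 60-base probe of the run went from 0.00 to 2.16 and the 58-base probe after it from -0.76 to 1.14. The probes just after the windows on chromosomes 7 and 1 thus rose less than the windows, and the probe before the one on chromosome 7 did not rise. The window on chromosome 1 lay at the start of its tiled stretch, and the one on chromosome 18 at the end of its own. The other side of each was thus not measured.

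The other rises differed in how even their probes were. At 64549758 to 64550146 on chromosome 1, the 3 probes went from 0.16, 0.24 and -0.85 to 1.84, 2.48 and 1.48, while the nearest 2 probes on each side stayed between -0.39 and 0.97 in either array. The regions on chromosome 6 from 48649542 to 48649888, chromosome 17 from 32084684 to 32085202 and chromosome 8 from 91589136 to 91589579 had differences of 2.36 ± 0.28, 2.33 ± 1.20 and 2.20 ± 0.84. At 55634163 to 55635061 on chromosome 7, the window had a difference of 2.71 ± 1.86, in which input fell by 1.28 and IP rose by 1.44. Over the 8, IP rose by 1.44 to 2.98 and input changed by -1.28 to 0.25. With a common input the 8 differences were 1.40 to 2.95. Normexp, whose offset pulls dim spots toward equal IP and input before the centring, gave 0.52 to 1.65.

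In signal, the IP of the rise on chromosome 7 at 112161405 went from 721 to 6027 while its input went from 731 to 921. On chromosome 1 at 46795732 IP went from 1605 to 6889 and input from 1375 to 1005. On chromosome 1 at 64549758 IP went from 828 to 3787 and input from 1014 to 1090. These 3 windows were brighter in input than the median 60-base window, at the 42.6th to 68.5th percentile of all windows untreated. The 8 rises lay in enriched regions of 704 to 1485 bp.

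The 8 largest falls began from dim untreated input. They went from 1.70 to 3.34 untreated down to -1.55 to -0.04, differences of -3.50 to -2.65, and their untreated input was at the 0.156th to 5.82nd percentile of windows. At 15457541 to 15458196 on chromosome 9, the probe values were 1.21, 3.92 and 3.65 untreated and -0.42, -0.35 and -0.97 with adriamycin. The input signal of the window was 64.1 untreated and 569 with adriamycin, while the IP signal was 440 and 347. The untreated input was thus the value that stood apart. The ratio that picked the falls has input as its denominator, so dim untreated input was favoured by construction.

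At 20594407 to 20595119 on chromosome 17, the 3 probes had 4.70, 3.38 and 1.95 untreated and -0.05, -0.42 and 0.35 with adriamycin, with input signals of 96.4 and 686 and IP signals of 889 and 631. At 113970901 to 113973853 on chromosome 14, the 3 probes had 2.98, 2.32 and 2.09, and -0.78, -0.69 and 0.48, with input signals of 47.9 and 308 and IP signals of 240 and 232. Also on chromosome 14, the region from 12462057 to 12462783 had a difference of -2.69 ± 1.02 although its IP was higher by 0.21. With a common input this difference turned to 0.22. Over the 8 falls input was higher with adriamycin by 1.12 to 3.07.

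IP fell by 1 or more in 2 of the 8. The fall on chromosome 4 from 10803565 to 10804246 showed an IP change of -2.12, with probe values of 4.56, -1.62 and 2.16 untreated and -2.18, -0.81 and -1.65 with adriamycin, so 1 of its 3 probes did not fall. The fall on chromosome 12 from 57535914 to 57536448 showed -1.16 in IP and a difference of -2.71 ± 0.45. These were the 2 falls that kept a size of 1 with a common input, at -2.15 and -1.15. The falls on chromosome 9 (22968997 to 22969830) and chromosome 2 (114349344 to 114349775) had -2.69 ± 1.80 and -2.65 ± 2.29, and -0.77 each with a common input.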

How the data were processed

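Per the file headers, spots were quantified by the scanner program (Agilent Feature Extraction 10.1.1.1). The deposited processed signals used here are intensities, from which that program had removed background before multiplying each channel by a dye factor. The value table that the authors deposited is in log2 ratios, and its filled values equalled, within 1e-06, the log2 ratio of background-subtracted spot medians, IP over input. Left out were control spots, probes without a position and any spot marked as an outlier on one of its design's arrays. This kept 236817 and 236686 probes, 236817 and 219099 of them autosomal, and 113 and 308 autosomal ones, listed with start after end, did not count as 60 long. Ratios were centred on the array median, without lowess. Bound windows at most 500 bp apart were merged into regions. Named regions are the 8 highest by the mean of both conditions, the 8 largest rises and the 8 largest falls. Their best window had all spots well above background and none saturated. The windows, lists and rules were chosen with earlier results of these data known. The calling steps were tested on simulated data, with strong sites planted in normally distributed noise. That checks the code and cannot give the rate of false calls at dim spots. Normexp was run with limma 3.58.1 and the lowess curve with statsmodels 0.14.6, and the other alternatives stand in the closing section. Since each design has 1 array per condition, the number of arrays limits the precision.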

Additional observations from a re-analysis of the deposited data

How the results depend on the processing

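The gap of 60-base windows to all windows (-0.28 untreated, -0.34 with adriamycin, means of both designs) became 0.06 and 0.01 with normexp. There the gap to windows without a 60-base probe turned in 3 arrays and stayed at -0.23 in the adriamycin array of design 2. The normexp offset pulls dim spots toward equal IP and input, and its part in this turn was not tested. The gap to all windows was -0.13 and -0.02 with lowess, -0.45 and -0.53 with the deposited table and -0.15 with adriamycin when centred within input deciles. In the following, counts are bound windows untreated and with adriamycin, depleted windows untreated and with adriamycin, and regions higher and lower, as far as they moved by more than 1.5 times. Reference values are 2823, 1565, 6170, 4089, 194 and 916. Centring on 60-base probes gave 4576 and 2478 bound, 2887 and 1273 depleted, and 301 higher. Centring within input deciles gave 1586 bound untreated, 1735 depleted with adriamycin, and 303 higher and 312 lower. Lowess gave 3481 and 683 depleted. Normexp gave 329 and 417 bound, 3 and 0 depleted, and 29 higher and 0 lower. The deposited table gave 926 and 1020 bound, 7007 depleted with adriamycin, and 108 higher and 73 lower. A common input gave 1750 bound untreated, 2997 and 7428 depleted, and 179 lower. Only spots well above background, with 43190 60-base windows, gave 1674 bound untreated, 3733 and 2357 depleted, and 116 higher and 443 lower. Equal spread gave 299 higher. Windows of 5 probes, of which 28674 held only 60-base probes, gave 766 and 433 bound, 1754 and 1074 depleted, and 26 higher and 182 lower. A threshold of 1.5 gave 1097 and 731 bound, 1201 and 444 depleted, and 78 higher and 354 lower, and a threshold of 2 gave 515 and 437, 119 and 25, and 35 and 87. A change of at least 1.5 gave 73 higher and 575 lower. Windows with at least 2 of 3 probes of 60 bases gave 7632 and 5201 bound, 10778 and 6659 depleted, and 440 higher and 1702 lower. They are more windows, 147450 in all. Only regions with all spots well above background gave 114 higher and 354 lower. Thresholds, filters and 5-probe windows lower counts by construction, and for the other settings the cause was not tested.

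Of the 8 rises and 8 falls, 1 changed direction: the fall on chromosome 14 at 12462057 went to 0.22 with a common input. Among the 8 highest, differences between conditions changed sign with a common input, normexp or equal spread (between -0.83 and 1.05 over these), and their mean levels went from 3.94 to 4.29 down to 2.18 to 2.96 with normexp. The 8 rises stayed at 1 or more in every setting but normexp (6 of 8) that gave them a value, and the deposited table held 7 of them. With normexp the 8 falls shrank to -1.06 to -0.36, with 1 at a size of 1 or more. The filter of regions and normexp on spot medians were chosen after seeing the data, the latter because mean spot signals are no column of the files used here. No paired analysis was possible because untreated and treated cells had a single array each in a design, and for the same reason no replicate could be left out. Signal over background limits the 60-base windows, whose spots are dim, and more arrays would be needed to test any difference.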

Other observations

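Chromosome X, on design 2 alone, was outside the autosomal rule. It held 3950 windows with 3 probes of 60 bases, 26.2% of its 15071 windows. Their median log ratio was -0.12 (interquartile range over windows -0.62 to 0.43) untreated and -0.36 (-0.72 to -0.02) with adriamycin. Of these windows 249 (6.30%) were bound untreated and 37 (0.937%) with adriamycin, against 13.4% and 11.0% of the other chromosome X windows, whose medians were 0.17 and 0.08. Their median input signal was 169 untreated and 201 with adriamycin, below the 372 and 417 of autosomal 60-base windows of the same design.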
